A study of Mus musculus with 6 samples.

Results

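Collagens are the triple-helical proteins that give the extracellular matrix its strength, and 41 collagen genes were measured here in hair follicle bulbs with and without functional Notch1. They are the genes whose symbol in the platform annotation starts with Col and a digit, apart from Col17a1, and they are covered by 81 of the 45037 probe sets that are not array controls and make up 41 of the 18193 genes named by a probe set with 1 symbol. Each gene is represented by its probe set with the highest mean signal over all arrays; 14 genes had 1 probe set and 27 had several. Of the 41 genes, 31 were bright enough to be tested and 10 were not.

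Total RNA of mouse hair bulbs at postnatal day 9, in the first hair growth phase, was hybridised to 6 one-colour arrays. The emN1 bulbs (2 arrays) came from skin deleted for Notch1 in the embryo and have no functional Notch1. The anN1 bulbs (2 arrays) came from skin deleted in anagen, the growth phase of the follicle, and still held functional Notch1. Wild-type bulbs made up the remaining group (2 arrays), and anN1 and wild-type together are the 4 control arrays. The first array set held emN1 replicate 1 and anN1 replicate 1, and the second set the other 4 arrays. The sources used here do not name the Cre line or the number of animals behind an array. The replicates are labelled biological, and the p-values measure only the spread between these samples.

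Collagens are grouped by what they build. Fibrillar collagens form the striated fibres of dermis and of the connective tissue sheath around the follicle, and fibril-associated collagens sit on the surface of those fibres. Type IV collagens form the sheet-like network of basement membranes, such as the one between the hair matrix and the dermal papilla, type VI collagens form beaded microfilaments next to it, and type VII collagen anchors the basement membrane to the dermis. The chains are hydroxylated and folded in the endoplasmic reticulum, trimmed outside the cell and then cross-linked by lysyl oxidases.

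As a check of the labels, Notch1 was lowest in emN1, although the labels name no deleted exons, and a probe set lying outside them would check nothing. Its brighter probe set gave 6498 and 6292 signal units on the emN1 arrays, 15077 and 12527 on anN1, and 23750.2 and 34070.4 on wild-type. The trimmed mean signal was 1499 to 1500 on all 6 arrays. Values scaled to a common mean would give this, so it cannot show whether an array stood apart. The median signal ran from 219.9 on wild-type replicate 2 to 262 on emN1 replicate 2. Signals are on the linear scale of the deposited table, and 20 control probe sets for bacterial transcripts, taken as background, gave a median signal of 24.4; the 95th percentile, 112, is called the background limit. A difference is given in log2 units of signal plus 17.8, with its standard error (SE). A gene is said to have risen or fallen only where limma's adjusted p (Benjamini-Hochberg over 27022 probe sets) was under 0.05.

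The bases just upstream of the start site are shown for 4 collagen genes that rose in emN1, those whose 100 bases lie outside every annotated gene, and for Col6a1, the neighbour of Col6a2 that was not called. Each run gives the 100 bases before a start, 5′ to 3′ on the gene's strand, from RefSeq's annotation of GRCm38.p6. Capitals mark a GC box, GGGCGG; it and the CCAAT box, CCAAT, were searched on both strands.
Col1a2, chr6:4505518-4505617, plus strand: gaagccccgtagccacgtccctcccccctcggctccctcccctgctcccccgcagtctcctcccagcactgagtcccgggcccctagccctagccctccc
Col3a1, chr1:45311438-45311537, plus strand: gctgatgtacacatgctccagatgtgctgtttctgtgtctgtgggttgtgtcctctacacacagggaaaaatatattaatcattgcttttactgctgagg
Col7a1, chr9:108953486-108953585, plus strand: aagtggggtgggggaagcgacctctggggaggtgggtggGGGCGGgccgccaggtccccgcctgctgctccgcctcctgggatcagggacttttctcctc
Col6a2, chr10:76623631-76623730, minus strand: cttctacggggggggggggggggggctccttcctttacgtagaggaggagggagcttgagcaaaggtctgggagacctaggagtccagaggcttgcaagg
Col6a1, chr10:76726045-76726144, minus strand: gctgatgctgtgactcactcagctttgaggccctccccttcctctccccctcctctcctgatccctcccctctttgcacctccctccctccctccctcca

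The run of Col7a1 held a GC box starting at position -61, counted back from the start site, and the other 4 runs held neither motif. Another Col6a2 start of the table, within the gene, had 3 GC boxes in its 100 bases. Of the 41 collagen genes, 32 had an entry in the promoter table, with 35 start windows in all. A GC box was found within 100 bases upstream in 17 of those 32 genes, a CCAAT box in 3 and a TATA box, TATAAA, in 1. Over all 32851 promoters of the table the same window held a GC box in 24.7%, a CCAAT box in 18.9% and a TATA box in 5.56%. Among the 8 collagen genes with an entry that rose in emN1, 4 held a GC box, 2 a CCAAT box and 0 a TATA box. No match says only that these letters are not in the window.

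Against the 4 control arrays, 10 of the 31 tested collagens rose in emN1, 1 fell and 20 did not pass the test. The genes that rose were Col12a1, Col5a2, Col7a1, Col1a2, Col6a2, Col4a2, Col6a3, Col4a1, Col11a1 and Col3a1, by 0.87 to 1.81 log2 units, and the gene that fell was Col4a4. Over all 12604 genes tested, 3.59% were called higher and 1.84% lower. The median difference of the 31 collagens was 0.52 log2 units, with 21 of them above 0, where the median of all genes was -0.02 with 47.5% above 0. On 15 of the 31 collagens both emN1 arrays lay above all 4 controls, and on 1 both lay below, against 12.5% and 10.4% of all genes. These values describe whole bulbs, in which a change in the number of cells of a type and a change in RNA per cell cannot be told apart.

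Each of the 11 calls kept its direction when a single array was left out, but fewer passed in some of these fits. Without emN1 replicate 2, 0 of the 31 collagens passed limma (14, or 45.2%, at an unadjusted p under 0.05, against 16.4% of all genes). Without emN1 replicate 1, 3 passed (all genes 0.920%), and without anN1 replicate 1, 4 passed (all genes 1.09%); leaving out either takes the first set out of the comparison. In these 3 fits a single emN1 array carries the comparison and is assumed to vary like the other groups, so their counts say little about the stability of the calls. In the fit of 6 arrays, 15 collagens (48.4%) and 20.7% of all genes had an unadjusted p under 0.05. When the variance was modelled without its trend on signal, 0 collagens passed (16, or 51.6%, at an unadjusted p under 0.05, against 17.4% of all genes), as did 0% of all genes. With no replicate block (no array set term) the calls on Col7a1, Col4a4, Col11a1 and Col4a1 were lost, and with a block by replicate number those on Col7a1, Col3a1, Col4a4, Col11a1 and Col1a2; all genes were called in 1.64% and 1.57%.

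**Figure D1:**
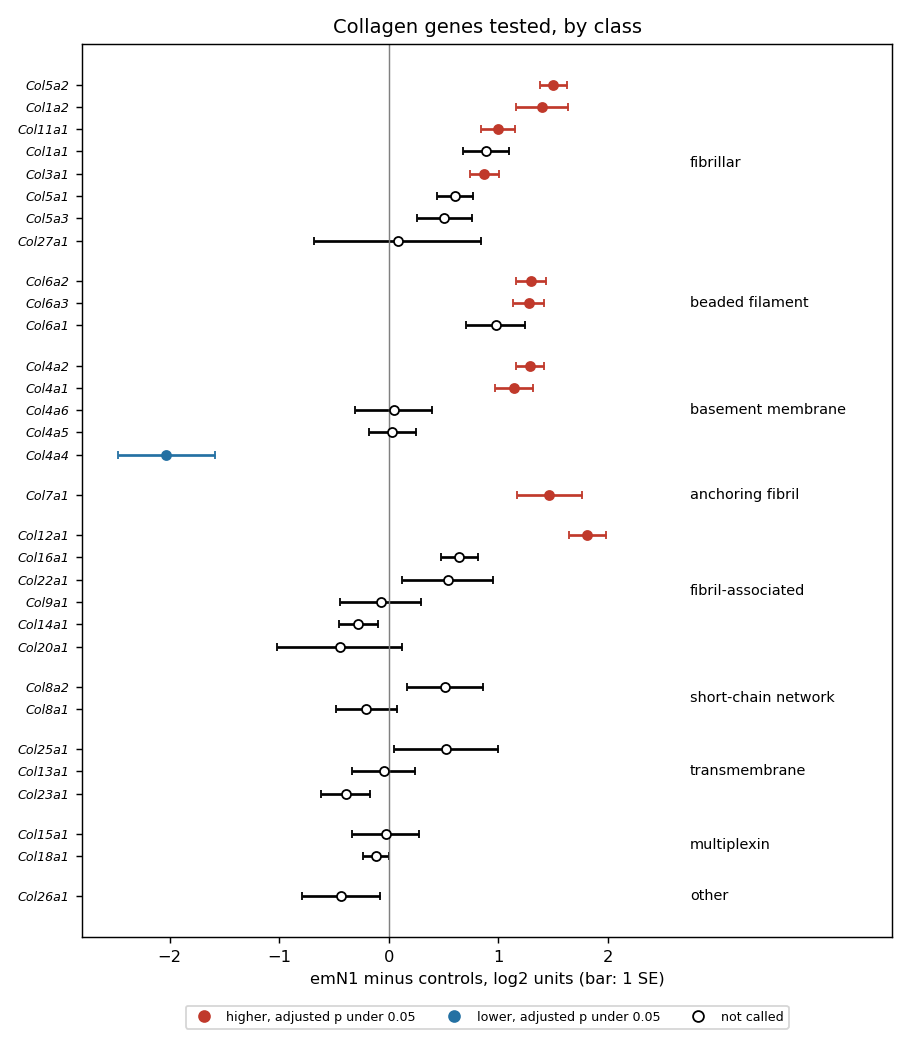
Difference between emN1 and the 4 controls in log2 units (horizontal axis; bars are 1 SE) for the 31 collagen genes tested, grouped by collagen class. Filled red points are the 10 genes that rose, from 0.87 for Col3a1 to 1.81 for Col12a1, the filled blue point is Col4a4 at -2.03, and open points did not pass.

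By class, the counts lay with the fibrillar, type VI and type IV collagens. Of the 8 fibrillar collagens tested 4 rose (median 0.88), of the 3 type VI chains 2 rose (median 1.28), and of the 5 type IV chains 2 rose and 1 fell (median 0.04). Among the 6 fibril-associated collagens 1 rose (median 0.23), and the anchoring fibril collagen Col7a1 rose. None of the 8 others, 2 short-chain, 3 transmembrane and 2 multiplexin collagens and Col26a1, passed limma (0 at an unadjusted p under 0.05). A difference between classes was not tested.

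The fibrillar collagens come first. Type I collagen, the most abundant protein of the dermis, is built from the products of Col1a1 and Col1a2. Col1a2 gave 34260.4 and 24299 on the emN1 arrays, 9994 and 10288 on anN1, and 8289.7 and 15345 on wild-type. Both emN1 signals lay above every control, of which wild-type replicate 2 was the highest. The difference was 1.40 log2 units (SE 0.24; limma adjusted p = 0.0177), and the signal ratio of emN1 to anN1 was 3.43 within the first array set and 2.36 within the second. A second Col1a2 probe set also passed, with 1.66 (SE 0.16).

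Col1a1, the partner chain, did not pass on its brightest probe set although its groups did not overlap. It gave 1703 and 2457 on the emN1 arrays, 1237 and 955 on anN1, and 1086 and 1198 on wild-type, a difference of 0.89 (SE 0.21; limma adjusted p = 0.0624). Its other tested probe set gave 1622 and 1936 on the emN1 arrays, 349 and 457 on anN1, and 650.0 and 935 on wild-type. That probe set passed, at 1.79 (SE 0.31; limma adjusted p = 0.0180), so whether Col1a1 is called depends on the probe set. With the mean of its probe sets the difference was 1.34 and passed (limma adjusted p = 0.0102).

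Col3a1 encodes type III collagen, which is laid down with type I in skin and vessel walls. Col3a1 gave 28513 and 26742 on the emN1 arrays, 15435 and 12313 on anN1, and 15344 and 16612 on wild-type. Each emN1 array was higher than every control. The gene rose by 0.87 log2 units (SE 0.13; limma adjusted p = 0.00976), and its second tested probe set gave 0.89 and also passed.

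Type V collagen chains lie inside type I fibrils and set how fibrils start and how thick they grow. Col5a2 gave 16802 and 12500.5 on the emN1 arrays, 5179 and 5176 on anN1, and 4876 and 4377 on wild-type. The 4 controls lay close together and the emN1 signals well above them. The rise was 1.50 (SE 0.12; limma adjusted p = 0.00175), a 2.84-fold difference on the scale with the addend. A dimmer second probe set gave 2175 and 1879 on the emN1 arrays, 1338 and 1267 on anN1, and 1393 and 1319 on wild-type, without overlap, and its difference of 0.58 (SE 0.16) did not pass (limma adjusted p = 0.0961). The size of the Col5a2 difference therefore differed between its probe sets.

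Col5a1, the other main type V chain, gave 2813 and 2803 on the emN1 arrays, 2148 and 1448 on anN1, and 1831 and 1715 on wild-type on its brightest probe set. The groups did not overlap, and the difference of 0.61 (SE 0.17) did not pass (limma adjusted p = 0.101). Another of its 3 tested probe sets passed at 1.25 (SE 0.16; limma adjusted p = 0.00568), and the third gave 1.67 (SE 0.57). Col5a3, a chain of more restricted expression, differed by 0.51 (SE 0.25) and did not pass.

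Type XI collagen is closely related to type V and is best known from cartilage fibrils. Col11a1 gave 2441 and 2914 on the emN1 arrays, 1152 and 1562 on anN1, and 1378 and 1582 on wild-type. Both emN1 arrays exceeded the controls, and the gene rose by 1.00 (SE 0.15; limma adjusted p = 0.0117). Its second probe set gave 0.89 and did not pass (limma adjusted p = 0.0735). Among 8 chondrocyte marker genes, 5 (Matn1, Matn3, Chad, Hapln1 and Cnmd) were under the background limit on all 6 arrays, and the 1 that was tested, Acan, a proteoglycan core protein, rose by 1.73. The summed signal of the 8 was 1167 and 1802 in emN1 and 625 to 805 in the controls, and without Acan it was 340.0 and 695 in emN1 and 372 to 529.9 in the controls, which overlap. Col2a1, the main fibrillar collagen of cartilage, was not tested; it was above background on anN1 replicate 1 alone.

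Type VI collagen assembles from 3 different chains into beaded filaments around cells and next to basement membranes. Col6a2 gave 5858 and 4207 on the emN1 arrays, 2278 and 1576 on anN1, and 1783 and 1879 on wild-type. Col6a3 gave 15126 and 12996 on the emN1 arrays, 6136 and 5646 on anN1, and 4538 and 6161 on wild-type. For both genes each emN1 array was above all controls. They rose by 1.30 (SE 0.14) and 1.28 (SE 0.14), with the same limma adjusted p of 0.00333.

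Col6a1 gave 1918 and 4890.4 on the emN1 arrays, 1481 and 1736 on anN1, and 1529 and 2452 on wild-type. The first emN1 array lay under wild-type replicate 2, so the groups overlapped, and the difference of 0.98 (SE 0.27) did not pass (limma adjusted p = 0.0969). Within the first array set its emN1 to anN1 ratio was 1.30 and within the second 2.82. Col6a4 and Col6a5, chains that can take the place of the third chain, were not tested. Col6a4 gave 98.5 and 87.1 on the emN1 arrays, 156 and 117 on anN1, and 94.2 and 30.0 on wild-type, and Col6a5 gave 28.8 and 31.0 on the emN1 arrays, 124 and 48.1 on anN1, and 42.9 and 6.90 on wild-type. Of these signals, 3 were above the background limit.

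**Figure D2:**
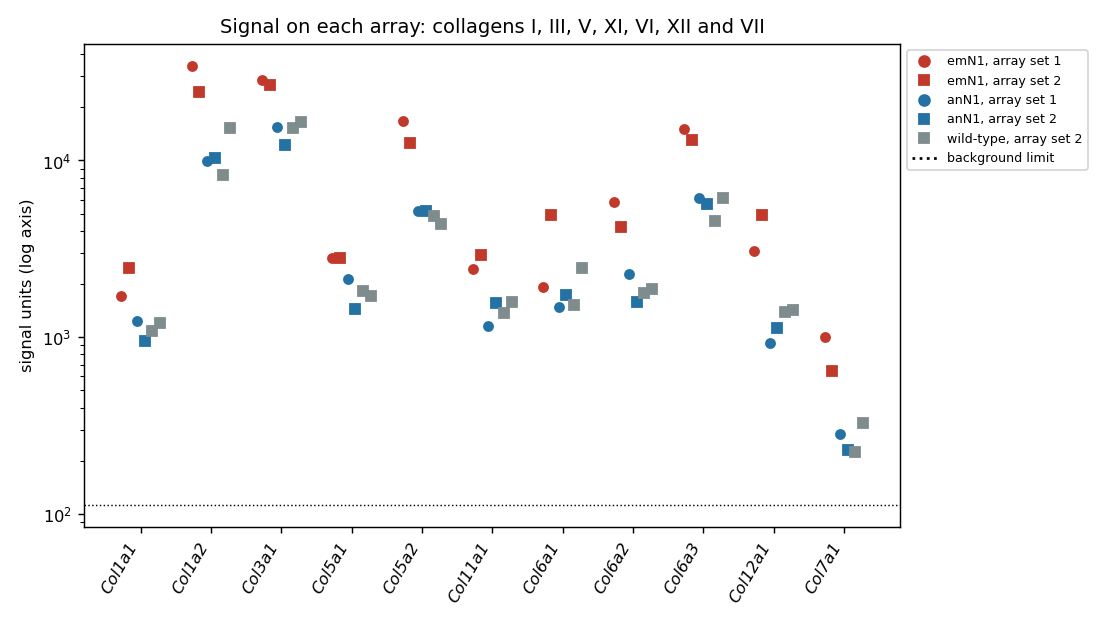
Signal on each array (vertical log axis, signal units) for 11 collagen genes; red is emN1, blue anN1 and grey wild-type, circles are the first array set, squares the second, and the dotted line is the background limit of 112. The emN1 points lie above all controls for every gene drawn except Col6a1, where emN1 replicate 1 at 1918 lies under wild-type replicate 2 at 2452.

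Fibril-associated collagens do not form fibres alone but bind to the surface of type I fibrils. Col12a1 gave 3057 and 4901 on the emN1 arrays, 929 and 1132 on anN1, and 1394 and 1416 on wild-type. The lower emN1 signal was more than that of any control array, and the difference, 1.81 (SE 0.17; limma adjusted p = 0.00208), was the largest rise of the 31 collagens. A second tested probe set gave 834 and 922 on the emN1 arrays, 413 and 349.6 on anN1, and 388 and 360.0 on wild-type and passed at 1.17 (SE 0.24). With the mean of all its probe sets, which takes in 2 dim ones that were not tested, the difference was 0.49 and did not pass (limma adjusted p = 0.479).

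The other fibril-associated collagens did not pass, with differences from -0.45 to 0.65. Col16a1, a collagen found near basement membranes and fibrils, gave 2395 and 2389.7 on the emN1 arrays, 1238 and 1851 on anN1, and 1598 and 1804 on wild-type. Both emN1 arrays lay above all controls, and the difference was 0.65 (SE 0.17; limma adjusted p = 0.0897). Col14a1, the close relative of Col12a1, gave 1429.8 and 1290.3 on the emN1 arrays, 1812 and 1738 on anN1, and 1303 and 1569.7 on wild-type. The groups overlapped, and the difference of -0.28 (SE 0.18) lay on the other side of 0.

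Type VII collagen forms the anchoring fibrils that hold the basement membrane to the dermis, and it is made by both keratinocytes and fibroblasts. Col7a1 gave 1004 and 644 on the emN1 arrays, 284 and 231 on anN1, and 223 and 326 on wild-type. Both emN1 arrays were above every control. The rise of 1.47 (SE 0.30; limma adjusted p = 0.0350) was among the less stable ones. It did not pass with dim probe sets left in (adjusted p = 0.0623), after quantile normalization (0.0523), without anN1 replicate 2 (0.0820) or without wild-type replicate 1 (0.0735).

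Type IV collagen is made as 3 kinds of chain trimers. The chains of Col4a1 and Col4a2 are found in nearly all basement membranes, while those of Col4a3 to Col4a6 join into networks of fewer tissues, the Col4a5 and Col4a6 chains in that of skin. Col4a1 gave 22919.7 and 27478 on the emN1 arrays, 9233 and 16890.1 on anN1, and 10682 and 13212 on wild-type. Col4a2 gave 11096 and 10905 on the emN1 arrays, 5168 and 4241 on anN1, and 3709.5 and 4272 on wild-type. In each gene the emN1 signals lay above the control signals, with Col4a1 of anN1 replicate 2 the nearest. They rose by 1.15 (SE 0.17; limma adjusted p = 0.0113) and 1.29 (SE 0.13; limma adjusted p = 0.00265). A second Col4a1 probe set also passed, at 0.96.

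The start sites of Col4a1 and Col4a2 lie 21 bases apart on opposite strands of chromosome 8, so that their start windows of 300 bases share 78 bases. The upstream run of either gene lies within the transcribed part of the other, and neither is shown. Col4a6 and Col4a5 form a like pair on chromosome X with starts 1343 bases apart, and neither passed. Col4a5 gave 2277 and 2225 on the emN1 arrays, 1476 and 2604 on anN1, and 3029.6 and 2941 on wild-type, a difference of 0.03 (SE 0.22). Col4a6 gave 267 and 507 on the emN1 arrays, 419 and 439 on anN1, and 368 and 279.9 on wild-type, a difference of 0.04 (SE 0.35). Both overlapped with the controls, and the sign of either difference changed with the processing (-0.10 for Col4a5 and -0.01 for Col4a6 without the array set term).

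Col4a4, a chain of the network best known from the kidney filter, was the single collagen that fell. It gave 35.0 and 151 on the emN1 arrays, 343 and 328 on anN1, and 706 and 446 on wild-type. Both emN1 signals were under all 4 controls, and that of emN1 replicate 1 was under the background limit. The gene fell by 2.03 log2 units (SE 0.44; limma adjusted p = 0.0452). A second tested probe set gave 35.1 and 90.1 on the emN1 arrays, 363 and 436 on anN1, and 529 and 366 on wild-type, with both emN1 arrays under the background limit. With those arrays set at the limit, the controls were at least 3.74-fold higher, and the fitted difference was -2.39 (SE 0.37; limma adjusted p = 0.0116).

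The call on the representative Col4a4 probe set was lost without wild-type replicate 1 (adjusted p = 0.107), with dim probe sets left in (0.0755) and with signals raised to the background limit (-1.51; 0.0524). Its neighbour on chromosome 1, Col4a3, which shares a divergent start region with it in mammals, was not tested and gave 101 and 65.8 on the emN1 arrays, 23.2 and 124 on anN1, and 91.6 and 121 on wild-type. Those signals overlapped between the groups, and 2 of them were above the background limit.

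**Figure D3:**
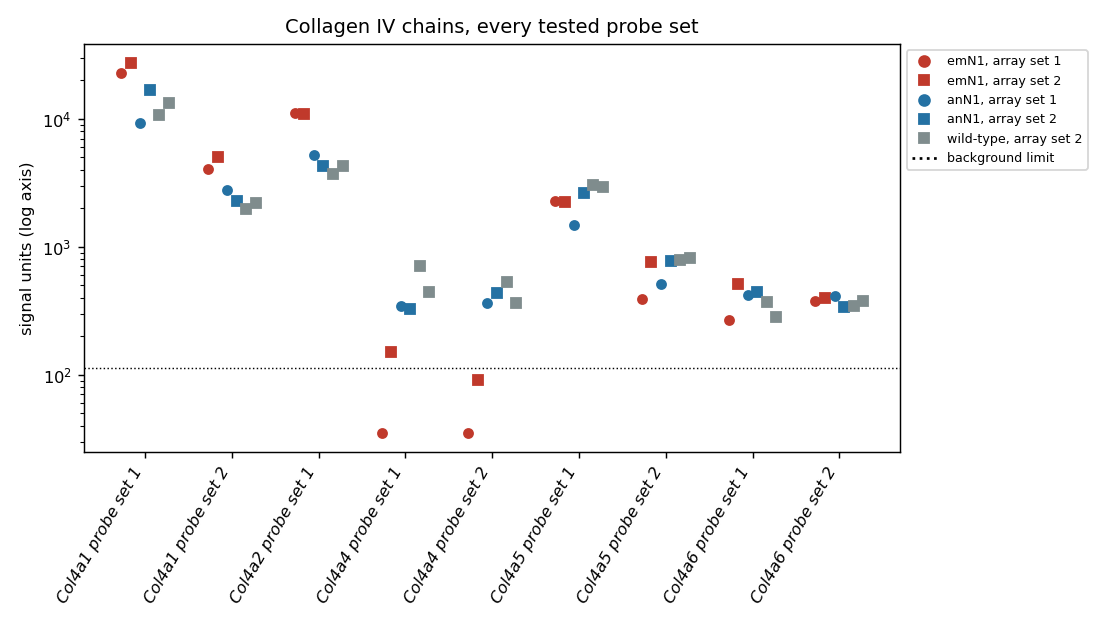
Signal on each array (vertical log axis, signal units) for every tested probe set of the type IV collagen genes; colours mark the groups and shapes the array sets, and the dotted line is the background limit of 112. For Col4a4 the emN1 arrays, at 35.0 and 151 on the first probe set, lie under all controls, for Col4a1 and Col4a2 they lie above all controls, and for Col4a5 and Col4a6 the groups overlap.

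The collagens that remain gave no call. Col18a1 and Col15a1, multiplexins of basement membrane zones, differed by -0.12 (SE 0.12) and -0.03 (SE 0.31). Col23a1, a transmembrane collagen, differed by -0.39 (SE 0.22), Col13a1, another, by -0.05 (SE 0.29), and Col25a1, the third, by 0.52 (SE 0.47). The short-chain collagens Col8a1 and Col8a2 differed by -0.21 and 0.52, and Col26a1 by -0.44. Col9a1, Col20a1 and Col22a1, further fibril-associated chains, differed by -0.07, -0.45 and 0.54, and the fibrillar Col27a1 by 0.08 (SE 0.76). The 10 genes not tested were Col2a1, Col4a3, Col6a4, Col6a5, Col9a2, Col9a3, Col10a1, Col11a2, Col19a1 and Col24a1, with signals from 4.41 to 300.3, of which 14 of 60 were above the background limit.

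Several collagen genes are neighbours in the genome. Col3a1 and Col5a2, next to each other on chromosome 1, both rose, as did Col4a1 and Col4a2. Col6a2 rose by 1.30, and its neighbour on chromosome 10, Col6a1, did not pass at 0.98. The difference between these 2 genes was not tested. Col4a4 fell next to the untested Col4a3, and Col4a6 and Col4a5 did not pass.

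Set against each kind of control separately, fewer collagens passed, and all that did were higher in emN1. Both comparisons come from the same fit of all arrays in 3 groups with the array set term. They use the same emN1 arrays, which they share with the comparison above. Both wild-type arrays are in the second set, so the wild-type differences also draw on the anN1 arrays through the set term. Against anN1, 9 of 31 rose and 0 fell (all genes 2.13% and 0.897%; median of the collagens 0.61). Against wild-type, 7 rose and 0 fell (all genes 2.36% and 0.873%; median 0.63). The genes that rose against both were Col3a1, Col4a1, Col4a2, Col5a2, Col6a2, Col6a3 and Col12a1, and Col1a2 and Col11a1 passed against anN1 alone. Col5a2 differed by 1.48 from anN1 and 1.54 from wild-type, Col12a1 by 1.90 and 1.69, and Col3a1 by 1.00 and 0.69.

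The genes that passed against 1 kind of control had these values against both, and the difference between the comparisons was not tested. Col1a2 differed by 1.51 from anN1 (limma adjusted p = 0.0439) and 1.24 from wild-type (0.111). Col11a1 differed by 0.98 (limma adjusted p = 0.0480) and 1.02 (0.0601). Col7a1, at 1.58 and 1.29, and Col4a4, at -1.91 and -2.22, passed in neither. Without emN1 replicate 1, emN1 replicate 2, anN1 replicate 1 or anN1 replicate 2, 0 collagens passed limma against either control (12 to 15 at an unadjusted p under 0.05, or 38.7% to 48.4%, where all genes gave 9.70% to 14.4%), and 0% to 0.349% of all genes passed. Without wild-type replicate 1 or 2, 12 passed against anN1 in either case (all genes 6.51% and 6.204%), and 8 and 10 against wild-type (all genes 5.75% and 4.58%), so the share of all genes called rose as well. Against anN1 the count of 9 became 0 with no array set term and 2 with the block by replicate number, and against wild-type the 7 became 3 in either case.

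The controls themselves did not separate on the collagens. Between anN1 and wild-type 0 of the 31 collagens passed limma (1 at an unadjusted p under 0.05, against 4.78% of all genes), where 0.127% of all genes passed, and the median difference was -0.02. For the genes that rose in emN1 the anN1 minus wild-type difference ran from -0.32 for Col3a1 to 0.35 for Col4a1. A p above the threshold does not show that the controls are alike.

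The array sets allow the emN1 to anN1 difference to be read on separate arrays. Of the 31 collagens, 17 (54.8%) were higher in emN1 in both sets, 4 (12.9%) were lower in both and 10 (32.3%) had opposite signs, where the shares of all genes were 29.7%, 32.7% and 37.5%. A signal at least 2-fold higher (1 log2 unit) in emN1 in both sets was found for 7 collagens (22.6%) and for 2.40% of all genes. Col12a1 gave 1.70 in the first set and, in the second, 2.10. Col5a2 gave 1.69 and 1.27. Col1a1 gave 0.46 and 1.35, and Col6a1 0.37 and 1.48. The widest gaps between the sets were those of Col27a1, at -1.27 and 2.56, Col20a1, at -1.85 and 0.24, and Col4a4, at -2.77 and -1.04.

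**Figure D4:**
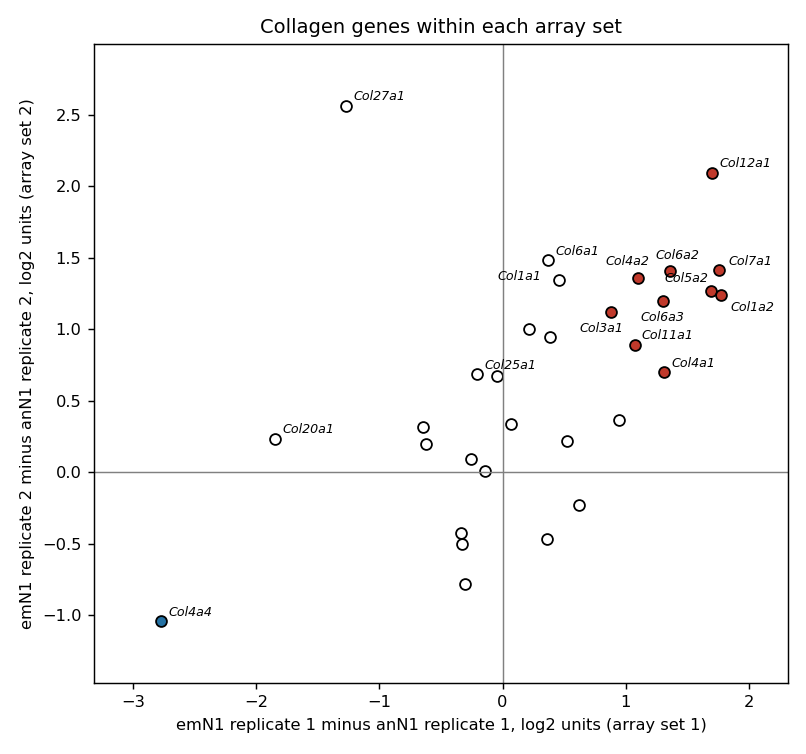
Each point is 1 tested collagen gene, with the emN1 minus anN1 difference in log2 units in the first array set (horizontal axis) and in the second (vertical axis); red points rose and the blue point fell against the 4 controls. The 10 genes that rose lie to the upper right, from 0.88 to 1.78 along the horizontal axis and from 0.70 to 2.10 along the vertical one, Col4a4 lies to the lower left, and Col27a1 and Col20a1 have opposite signs.

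Of 29 genes on the list of those that make and cross-link collagen, 24 were tested, with a median of 0.19. Of these 24, 4 rose, 1 fell and 19 did not pass, where 3.59% of all genes rose and 1.84% fell. Lox and Loxl1, lysyl oxidases that cross-link collagen and elastin, rose by 1.41 (SE 0.24) and 1.28 (SE 0.21). Bmp1, the protease that trims fibrillar procollagens, rose by 1.07 (SE 0.15), and Pcolce, an enhancer of that protease named outside the rule, by 0.70 (SE 0.15). Tgm2, a transglutaminase that can cross-link matrix proteins, gave 518 and 412 on the emN1 arrays, 3174 and 1014 on anN1, and 1807 and 2505 on wild-type, and fell by 2.21 (SE 0.35). None of the tested genes for folding and hydroxylation passed. The chaperone Serpinh1 differed by 0.36 (SE 0.14), the prolyl hydroxylase subunits P4ha1, P4ha2 and P4hb by 0.42, 1.11 and 0.13, and the lysyl hydroxylase Plod2 by -0.50. The larger of these differences had both signs: P4ha2 (SE 0.47; limma adjusted p = 0.287) and P3h4 (0.74, SE 0.25; 0.172) were above all controls on both emN1 arrays, and P3h2, a prolyl 3-hydroxylase (-1.13, SE 0.39; 0.184), was below all of them. P4ha2 on 3 control arrays and P3h2 on emN1 replicate 1 (107) were under the background limit. Of all genes, 12.5% were above and 10.4% below all controls on both emN1 arrays. With no array set term 1 gene of this list passed limma and with the block by replicate number 0 did (8 and 7 of the 24 at an unadjusted p under 0.05). The shares of all genes at that p in these fits are given below, with the basement membrane genes.

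Of 9 collagen receptor genes 6 were tested, 1 rose (3.59% of all genes) and the median was 0.35. Ddr2, a receptor kinase for fibrillar collagens, gave 1422 and 2568 on the emN1 arrays, 492 and 964 on anN1, and 622 and 899 on wild-type. Both emN1 arrays lay above the controls, and it rose by 1.58 (SE 0.23; limma adjusted p = 0.00950). Ddr1, its relative in epithelia, differed by 0.24 and the integrin chain Itgb1 by 0.58, and neither passed. With no array set term 0 receptors passed limma (1 at an unadjusted p under 0.05), and with the block by replicate number 1 did. The shares of all genes given with the basement membrane genes apply here too.

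Laminins, nidogens and proteoglycans share the basement membrane with type IV collagen. Of 14 such genes 13 were tested, 6 rose and 0 fell (all genes 3.59% and 1.84%), with a median of 0.69. These 6 calls depend on the array set term: 0 passed limma without it and 0 with the block by replicate number instead (6 and 8 of the 13 at an unadjusted p under 0.05, where all genes gave 12.96% and 13.24%). Lamb3, a chain of the laminin that anchors basal keratinocytes, rose by 1.65 (SE 0.23), Nid2, a linker of laminin and type IV collagen, by 1.52 (SE 0.30), and the laminin chains Lama2 and Lamb1 by 0.94 (SE 0.19) and 0.69 (SE 0.11). Lamb3 gave 852 and 2026 on the emN1 arrays, 210.1 and 619 on anN1, and 754 and 821 on wild-type, so that emN1 replicate 1 lay far above anN1 replicate 1 of its own set and just above the wild-type arrays. Hspg2, the perlecan core protein, differed by -0.000899 and did not pass. In all 3 lists 0 genes passed limma without emN1 replicate 1, anN1 replicate 1 or emN1 replicate 2 (6 to 8 of the 24 making and cross-linking genes, 2 or 3 of the 6 receptors and 8 or 9 of the 13 basement membrane genes had an unadjusted p under 0.05, where all genes gave 16.2% to 16.4%). Without wild-type replicate 1, 3 basement membrane genes passed, and without anN1 replicate 2, 4.

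Marker genes of several cell types were read from the same fit, in which 3.59% of all genes rose and 1.84% fell. Of 9 fibroblast markers 3 rose: Thy1 by 1.51 (SE 0.16), Lum by 1.38 (SE 0.23) and Mfap5 by 1.19 (SE 0.21). The 9 had a median of 0.79, and 6 had an unadjusted limma p under 0.05 (20.7% of all genes). On 5 of the 9 both emN1 arrays lay above all controls (12.5% of all genes). Dcn, which encodes decorin, a small proteoglycan on collagen fibrils, gave 41026 and 33020.0 on the emN1 arrays, 36993 and 33931 on anN1, and 30847 and 42673 on wild-type and did not pass. The summed signal of the 9 genes was 59963 and 49832 in emN1 and ran from 41716 to 54162 in the controls, with 0 genes under the background limit on all arrays. The sum of all 9 overlapped between emN1 and the controls. Dcn made up 66.3% to 78.8% of that sum; the other 8 genes summed to 18937 and 16812 in emN1 and 10344 to 11489 in the controls, which do not overlap. In the dermal papilla list 8 of 9 were tested, the proteoglycan Vcan rose by 0.77, the Wnt enhancer Rspo3 fell by 1.30 and the median was -0.23; the sum was 26571 and 28835 in emN1 and 24720.0 to 31929 in the controls.

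Of the pericyte and smooth muscle markers 4 of the 6 tested rose (median 1.20), where 3.59% of all genes rose and 1.84% fell. Tagln rose by 1.69, Cspg4 by 1.57, Pdgfrb by 1.32 and Acta2 by 0.95. The sum of all 8 was 45417 and 46261 in emN1 against 20677 to 26675 in the controls. Rgs5, at 1.09, overlapped with the controls and did not pass. Notch3, a Notch receptor of mural cells, differed by -0.32 (SE 0.16) with both emN1 arrays below all controls and did not pass. Myh11 and Des were not tested. Of the macrophage markers 2 of 6 tested rose, Csf1r by 2.72 and Mrc1 by 2.42 (median 1.98), with sums of 5269 and 5813 against 936 to 1299. On all 6 tested both emN1 arrays lay above every control (12.5% of all genes). All 6 had an unadjusted limma p under 0.05 (20.7% of all genes). Keratinocyte markers had a median of -0.02 (2 of 6 rose, Krt14 by 1.15 and Krt5 by 0.65), with sums of 220722 and 227083 in emN1 and 199451 to 224221 in the controls. None of the 4 tested endothelial markers passed limma (0 at an unadjusted p under 0.05), and the defining genes Pecam1 and Tie1 were under the background limit on all 6 arrays; the sum of the 8 was 1927 and 2341 in emN1 and 1839 to 2520 in the controls. Of the 3 tested genes of the Schwann cell list Sox10 fell by 2.27, while Mbp, at 1.04, and S100b, at -0.71, had both signs and did not pass. The cell type in which Sox10 fell was not tested. In the last lists 0 of the 2 adipocyte (1 at an unadjusted p under 0.05) and 0 of the 2 skeletal muscle markers tested (0) passed limma. The part of any of these cell types in the collagen differences was not tested.

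**Figure D5:**
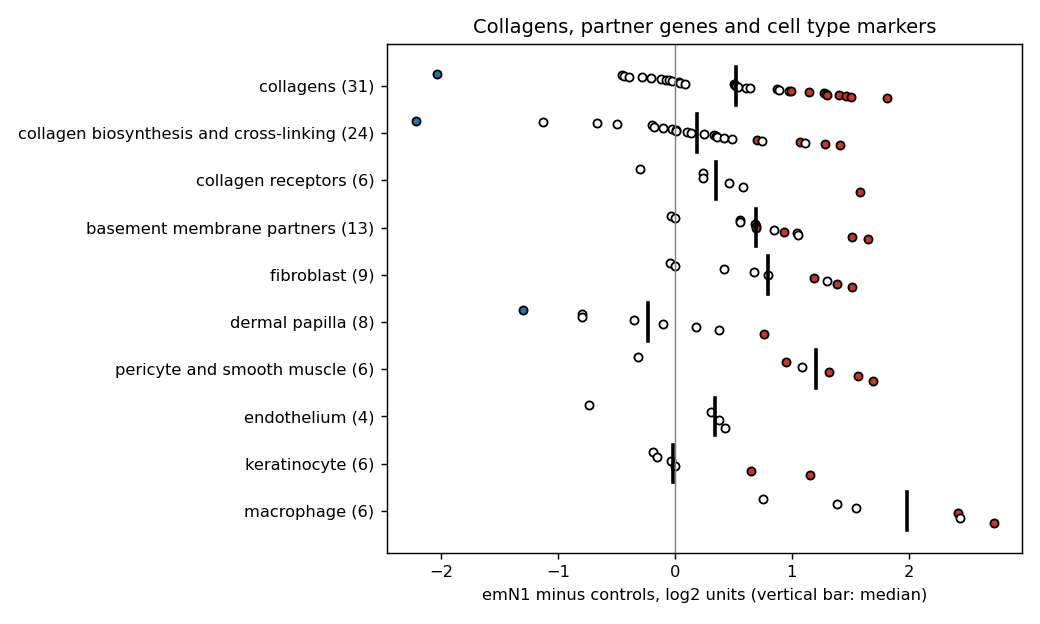
Difference between emN1 and the 4 controls in log2 units (horizontal axis) for every tested gene of each list, with the number tested in brackets and a vertical bar at the list's median; red points rose, blue points fell and open points did not pass. The collagens have a median of 0.52, the genes that make and cross-link them 0.19, the basement membrane partners 0.69, and the macrophage markers 1.98.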

How the data were processed

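Total RNA of 6 samples was measured on one-colour arrays. The authors deposited linear intensity values, 1 for each probe set. MAS5 is named per the submitters' processing notes; version and settings: not given in the sources used here. Their number, 6 arrays, limits precision. Of 45101 probe sets 64 were controls and were left out; 34958 had 1 gene symbol in the platform annotation, 932 several and 9211 none, and only the first were named.

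Signals were not rescaled. The 10th percentile of all values, 17.8, was added before taking log2, so differences of dim genes are understated, and the upper 60% of probe sets by mean log2 signal were kept (27022). limma 3.58.1 in R 4.3.3 (lmFit, eBayes with an intensity trend, two-sided) was fitted to all kept probe sets with array set as a term: emN1 against 4 controls (3 residual degrees of freedom) and 3 groups (2). Adjusted p-values are Benjamini-Hochberg, threshold 0.05. The step was also run on simulated data with independent noise, which does not bear on the stability of the calls. Figures were drawn with matplotlib 3.10.9.

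The replicate numbers of emN1 and anN1 equal their array set in the series' design text and so pair them. Replicate 1 minus replicate 2 correlated at r = 0.38 between these groups and at -0.19 and -0.02 for pairs with wild-type, whose numbers mark no set (27022 probe sets, which are not independent).

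All collagens are named. Per-array values are given for those past the threshold, for Col1a1, Col1a2 and Col3a1 and for type IV and VI chains, and for others where stated; up to 4 genes of each partner list past the threshold are named by size, and the rest of the partner and marker genes named were chosen after their values were seen. The members, classes and lists were chosen with earlier results of these data known. Alternatives were other addends, filters, scalings, blocks and probe set means, and leaving out each array.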

Additional observations from a re-analysis of the deposited data

Results flagged for a closer look

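Among the 4 control arrays, 1 of the 31 tested collagens had a single array far from the others. Col27a1, a fibrillar collagen, gave 83.8 signal units on anN1 replicate 2, under the background limit, while the other controls gave 483 on anN1 replicate 1 and 502 and 509.5 on wild-type. The gap to the nearest array was 0.969 of the whole range on the log2 scale. Gaps were flagged past a lower limit, which chance exceeds in about 1 of 20 groups, and 31 genes were examined at it. The emN1 arrays gave 189.8 and 583, and the gene was not called in any comparison.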

How the results depend on the processing

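With 6 arrays the counts of calls depended on the model more than the directions did. Of the 11 collagens called against the controls, none changed sign under any alternative tried, and the median of all tested collagens stayed above 0 in each (0.37 to 0.89). All 11 calls held with an addend of 1 or 50, 10 after quantile normalization or with signals raised to background, 9 with dim probe sets left in, and all 9 collagens still tested with the upper 40% kept. Against the controls, the count of 11 became 0 without the intensity trend, 7 with no replicate block (no array set term) and 6 with a replicate block by number; leaving out 1 array gave 0 to 11. Against anN1, the 9 became 0 without the trend, 0 with no replicate block and 2 with the block by number (0 to 12 leaving out 1 array). Against wild-type, the 7 became 0, 3 and 3 (0 to 10). The 5 calls among the genes that make and cross-link collagen became 0 without the trend, 1 with no replicate block, 0 with the block by number and 2 with probe sets averaged per gene (0 to 5). The 1 receptor call became 0 without the trend, with no replicate block and with averaged probe sets (0 to 1). The 6 basement membrane calls became 0 without the trend, 0 with no replicate block, 0 with the block by number and 3 with averaged probe sets (0 to 6). The fit without the trend has the same differences with other errors; for the other lost calls the cause was not tested. Col4a5 and Col4a6, which were not called, changed sign: Col4a6 to -0.00705 after quantile normalization and -0.0103 with no replicate block or the block by number (-0.618 to 0.486 leaving out 1 array), and Col4a5 to -0.104 with no replicate block or the block by number and -0.0723 with averaged probe sets (-0.356 to 0.619). Of 18 collagens with several tested probe sets, 15 had the same sign on all and 3 (Col4a5, Col8a1 and Col18a1) did not. Signal over background limits Col4a4, whose emN1 signals were under the background limit in 3 of 4 readings, and the 10 collagens not tested.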
